A study of Mus musculus with 18 samples.

Results

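The genes described here encode the subunits of oxidative phosphorylation, in the nucleus and in mitochondrial DNA. Members were the protein-coding genes of the count table whose symbol starts with Nduf and a subunit letter and number, with Uqcr, Cox4 to Cox8, Atp5 or mt-, or is Sdha to Sdhd or Cyc1. This gave 93 of 21995 genes. Of these, 84 are nuclear: 35 of complex I, 4 of complex II, 9 of complex III, 19 of complex IV and 17 of complex V. Ndufa4 and Ndufa4l2 were counted with complex IV, to which the Ndufa4 protein belongs despite its name. The other 9 members are mitochondrially encoded: mt-Nd1, mt-Nd2, mt-Nd3, mt-Nd4, mt-Nd5, mt-Nd6, mt-Co1, mt-Co3 and mt-Cytb, and other protein genes of mitochondrial DNA were not analysed here. The members were chosen by name and not by a cut on any measured value, but with earlier results of these data known.

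Libraries were made from the total RNA of embryonic stem cells (ESCs) of the mouse, which are pluripotent and can give rise to all tissues of the embryo. A line labelled Oct1 cKO, a conditional knockout of the transcription factor Oct1 (gene Pou2f1), was compared with cells labelled Parental at days 0, 2 and 6 of differentiation. From day 0 on, cells to be differentiated were placed on 0.01% gelatin in DMEM with non-essential amino acids, L-glutamine, penicillin and streptomycin, and with 1.5 ug/ml retinoic acid, a vitamin A derivative that drives ESCs out of pluripotency. The retinoic acid and gelatin apply to the libraries of days 2 and 6, and day 0 libraries stand for cells before this treatment. In changes since day 0, time and treatment therefore cannot be told apart. Each of the 6 groups held 3 libraries. The title of the series names mesodermal lineage specification, and the labels give neither the deleted part of Pou2f1 nor the recombinase nor the number of clones. Oct1 cKO cells are set against parental cells of the same day, and later days against day 0 of the same genotype.

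Oxidative phosphorylation passes electrons from NADH (through complex I) and succinate (through complex II) to ubiquinone, on to cytochrome c through complex III and to oxygen through complex IV, which builds the proton gradient that complex V, the ATP synthase, uses to make ATP. Complexes I, III, IV and V combine nuclear subunits, imported from the cytosol, with subunits made inside the mitochondrion from mitochondrial DNA, whereas complex II is nuclear throughout. Pluripotent stem cells are known for relying strongly on glycolysis while keeping an active respiratory chain, and this balance changes as they differentiate.

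Nuclear respiratory genes are known as targets of the factors NRF1, GABP (of the ETS family) and YY1, and Oct1 binds the octamer, so the 250 bases before the RefSeq start were searched on both strands for these words. A RefSeq promoter (GRCm38.p6) was matched for 67 of the 93 members, 62 of them with 1 promoter and 5 with 2. The NRF1 word (GCGCA, any base, then GCGC) was present for 13 of the 67 members (19.4%) and in 3.74% of 32851 mouse promoters of the same length. The ETS word CCGGAAG was present for 12 members (17.9%) and in 6.91% of all promoters. The octamer ATGCAAAT was present for 1 member, Ndufs4 (1.49% of the 67), and in 1.6% of all promoters. The YY1 word AAGATGGCG was present for 1 member, Atp5j, and in 0.606% of all promoters. The ETS word ends and the YY1 word begins with AAG, so matches to both can share letters. The Atp5j promoter with the YY1 word also holds the ETS word. Of the 67 members, 44 held none of the words. The shares are a description, and a missing word says only that its letters are not in this window.

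Below, 4 promoters are shown 5′ to 3′ on the strand of the gene, each ending at the base before the start. Sdha has the NRF1 word 3 times and Cox6a1 has it 2 times, Ndufs4 is the member with the octamer, and Cox5a, which was higher in Oct1 cKO at each day (below), holds none of the 4 words. Capitals mark the NRF1 word in Sdha and Cox6a1 and the octamer, read on the opposite strand as its reverse complement, in Ndufs4. Cox6a1 also holds the ETS word, left in lower case. Their positions are chr13:74350241-74350490 (Sdha, minus strand), chr5:115348959-115349208 (Cox6a1, minus strand), chr13:114388095-114388344 (Ndufs4, minus strand) and chr9:57520982-57521231 (Cox5a, plus strand).
Sdha: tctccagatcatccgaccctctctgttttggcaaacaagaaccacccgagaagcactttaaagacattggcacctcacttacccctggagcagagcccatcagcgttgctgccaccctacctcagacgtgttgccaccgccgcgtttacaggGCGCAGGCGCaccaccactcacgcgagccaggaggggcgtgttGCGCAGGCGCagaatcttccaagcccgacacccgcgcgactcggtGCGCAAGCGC
Cox6a1: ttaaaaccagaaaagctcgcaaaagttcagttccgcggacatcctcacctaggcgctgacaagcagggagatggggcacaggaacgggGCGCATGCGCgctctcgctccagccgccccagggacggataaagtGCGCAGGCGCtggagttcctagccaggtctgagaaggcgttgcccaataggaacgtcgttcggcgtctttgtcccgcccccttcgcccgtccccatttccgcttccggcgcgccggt
Ndufs4: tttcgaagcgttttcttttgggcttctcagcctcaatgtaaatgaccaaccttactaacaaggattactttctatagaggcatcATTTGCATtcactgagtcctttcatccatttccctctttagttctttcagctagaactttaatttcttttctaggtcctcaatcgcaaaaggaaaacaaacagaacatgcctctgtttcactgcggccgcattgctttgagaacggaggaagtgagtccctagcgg
Cox5a: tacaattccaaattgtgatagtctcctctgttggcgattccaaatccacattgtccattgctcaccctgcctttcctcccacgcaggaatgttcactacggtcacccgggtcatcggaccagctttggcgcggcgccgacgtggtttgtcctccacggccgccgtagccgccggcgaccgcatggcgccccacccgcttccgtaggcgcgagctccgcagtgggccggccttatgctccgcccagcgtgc

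Libraries held 13694126 to 19296966 counts. Levels below are CPM, counts scaled to a common library size with TMM factors, unless TPM, which also divides by gene length, is named. Values and sums of cell type markers are CPM on plain library sizes. Pou2f1 had 87.2, 88.2 and 62.4 CPM in Oct1 cKO libraries at day 0, against 135, 124 and 127 in parental libraries. The values were 59.5, 60.7 and 58.8 in Oct1 cKO against 105, 97.8 and 106 in parental cells at day 2, and 36, 45.3 and 44.5 in Oct1 cKO against 64.9, 61.1 and 64.2 in parental cells at day 6. Pou2f1 RNA was thus lower in every Oct1 cKO library than in every parental library of its day but was not gone, and counts over the whole gene do not show whether the deleted part was still transcribed. The third Oct1 cKO library of day 0 stands apart, with 7.43% of its counts in ribosomal protein genes against 6% and 6.09% in the other libraries of its group, and member values below that change call or move by over 1.5 times without it are given both ways. The pluripotency markers Pou5f1, Nanog, Sox2 and Zfp42, 4 of 4 measured, summed at day 6 to 63.6 to 65.6 CPM in Oct1 cKO and 7.31 to 9.28 in parental libraries, on plain library sizes. That gap came from Pou5f1 (27.6 to 28.7 in Oct1 cKO, 0.156 to 0.494 in parental libraries) and Zfp42 (34.3 to 37.3 and 5.39 to 7.07). Nanog went the other way (0.21 to 0.431 in Oct1 cKO, 1.04 to 1.76 in parental libraries), and Sox2 reached at most 0.862. At day 0 the pluripotency markers summed to 3067 to 3338 CPM in Oct1 cKO and 2519 to 2555 in parental libraries. Most of this gap was Pou5f1 (1303 to 1588 in Oct1 cKO, 798 to 869 in parental libraries), and Sox2 overlapped between genotypes. The 7 fibroblast markers summed to 330 to 344 CPM in Oct1 cKO and 1085 to 1144 in parental libraries at day 0, and to 620 to 708 in Oct1 cKO and 4400 to 4759 in parental libraries at day 6. Pdgfra went against this order at day 0 (2.41 to 3.08 in Oct1 cKO, 1.39 to 1.99 in parental libraries), and Postn and Thy1 overlapped at day 6. TMM factors at day 6 were 0.905 to 0.908 in Oct1 cKO and 1.04 to 1.05 in parental libraries. With TMM scaling Thy1 still overlaps, but Postn is higher in every Oct1 cKO library of day 6, against the fibroblast sum. At day 6 the 4 neuron markers summed to 23.4 to 29.9 CPM in Oct1 cKO and 218 to 222 in parental libraries, and the 4 visceral endoderm markers to 122 to 128 in Oct1 cKO and 57.6 to 62 in parental libraries. Tubb3 went against the neuron sum, with 19.8 to 26.4 in Oct1 cKO and 8.58 to 11.1 in parental libraries. Afp went against the visceral endoderm sum, with 6.99 to 8.13 in Oct1 cKO and 11.1 to 12.1 in parental libraries. The make-up of the cultures therefore moved with genotype and day, and its part in the results below was not tested. In bulk RNA, fewer cells of a type and less RNA per cell cannot be told apart.

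The nuclear members took about 1% of each library, and their share fell over the days in both genotypes. In Oct1 cKO libraries it was 1.27%, 1.27% and 1.46% at day 0, 1.21%, 1.16% and 1.20% at day 2, and 0.929%, 0.885% and 0.879% at day 6. In parental libraries it was 1.24%, 1.25% and 1.26% at day 0, 1.07%, 1.1% and 1.08% at day 2, and 0.903%, 0.913% and 0.897% at day 6. Oct1 cKO libraries lay above all parental libraries at day 0, narrowly but for the third, and at day 2, while at day 6 the genotypes overlapped. The mitochondrially encoded members did not follow this order. They took 1.38%, 1.36% and 1.24% of Oct1 cKO libraries at day 0, against 2.12%, 2.01% and 2.12% of parental libraries. At day 2 the shares were 1.48%, 1.42% and 1.34% in Oct1 cKO against 1.60%, 1.25% and 1.46% in parental libraries, and at day 6 0.957%, 1.02% and 1.09% in Oct1 cKO against 1.14%, 1.05% and 1.07% in parental libraries. The genotypes were thus separate at day 0 and overlapped at days 2 and 6. The 95% Wilson interval of any of these shares was at most 0.0137 percentage points wide, which covers counting error only.

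**Figure D1:**
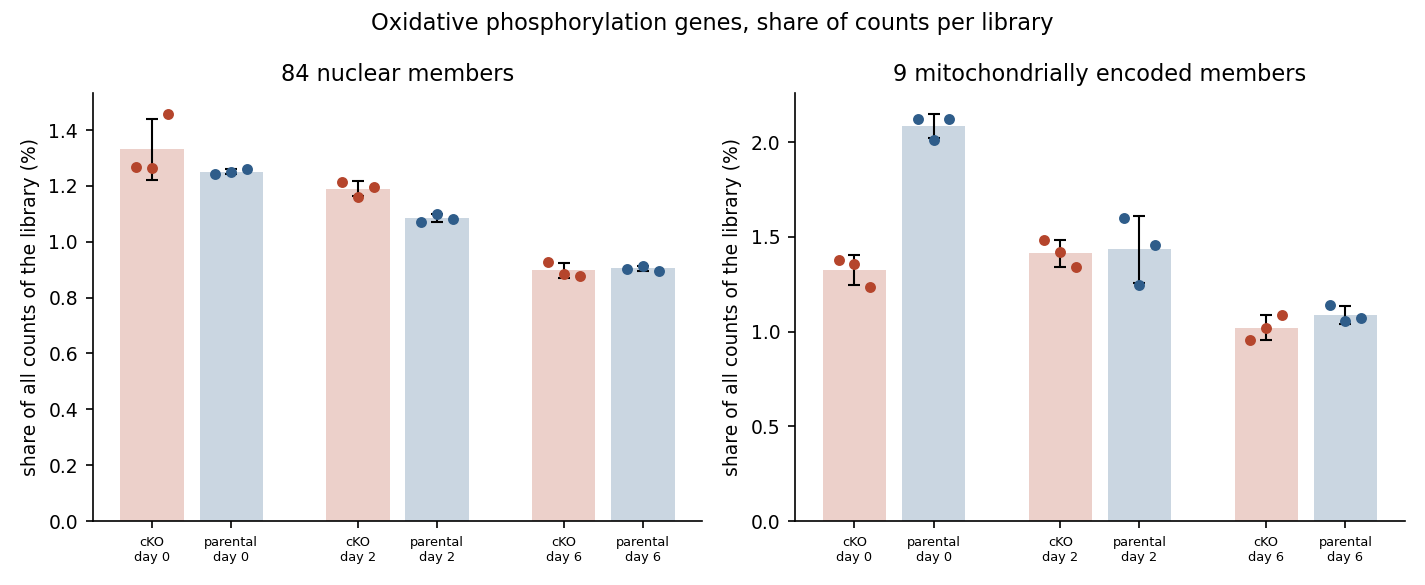
Share of each library's counts (y axis, percent) taken by the 84 nuclear members (left) and the 9 mitochondrially encoded members (right), by genotype and day (x axis). Points are libraries, bars are means and error bars are the SD over 3 libraries, and the mitochondrial share of day 0 is the panel's widest gap, 1.24% to 1.38% in Oct1 cKO and 2.01% to 2.12% in parental libraries.

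Of the 93 members, 91 had enough counts to be tested, 83 nuclear and 8 mitochondrially encoded. Cox6a2 and mt-Co3 did not. Tests were edgeR's quasi-likelihood test, and a gene was called at a Benjamini-Hochberg adjusted p under 0.05 over all 18352 genes tested. Calls were very common in these data, so a count of members means little without the share of all genes called. At day 0, 36 of 83 nuclear members were higher in Oct1 cKO and 12 were lower, where 26.4% of all genes tested were higher and 27% lower. At day 2, 56 were higher and 3 lower (all genes: 33.7% and 33.6%). At day 6, 37 were higher and 13 lower (all genes: 36.7% and 37.8%). The median log2 fold change of the nuclear members was 0.12, 0.26 and 0.14 at days 0, 2 and 6, where that of all genes was 0.00, -0.01 and 0.00. These splits depend on scaling. With library sizes alone, which puts the median of all genes at -0.20 at day 2 and -0.19 at day 6, the counts were 33 higher and 13 lower at day 2, and at day 6 the split turned to 16 higher and 26 lower. Without the third Oct1 cKO library of day 0, 29 were higher and 17 lower at day 0, with a median of 0.05, and 5 were lower at day 2. Most differences were small, and 35, 24 and 33 of the 83 were not called at days 0, 2 and 6.

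**Figure D2:**
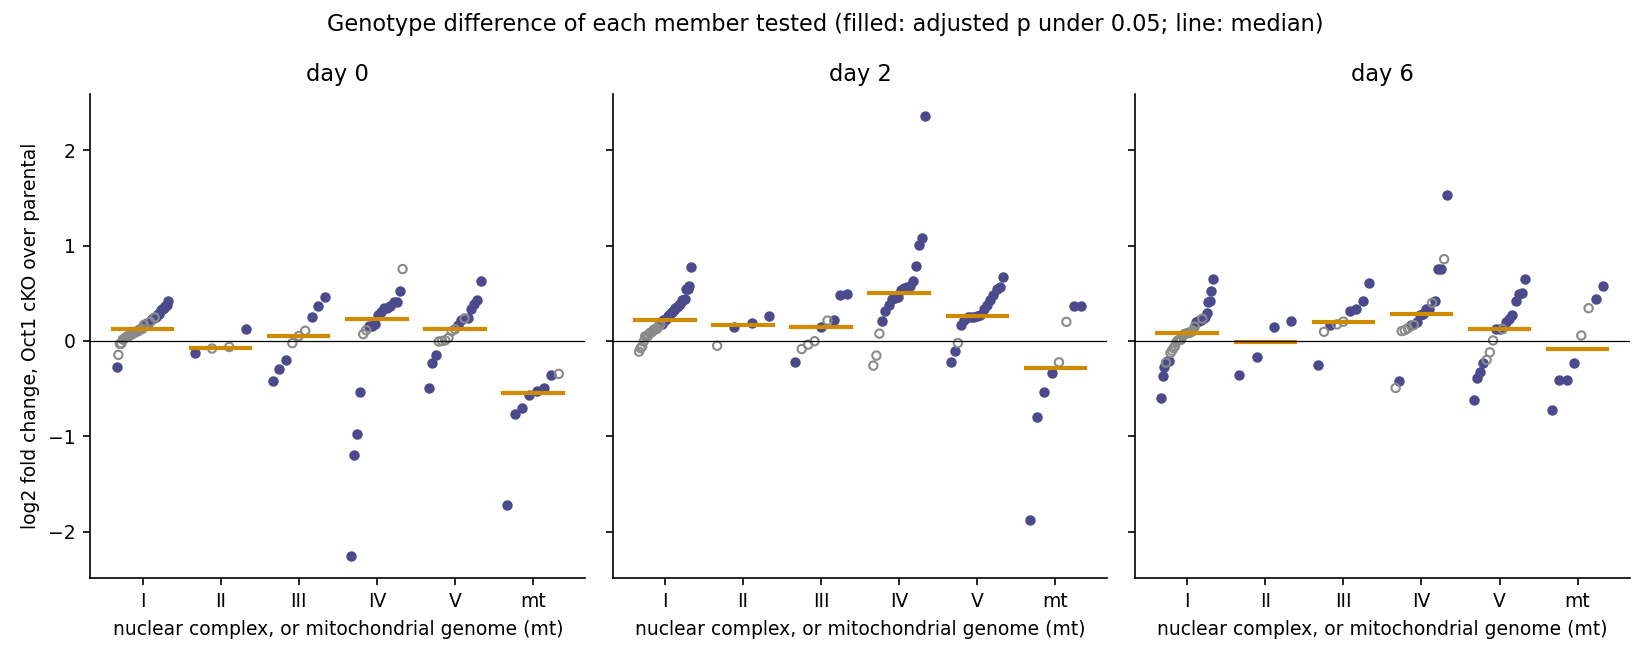
Log2 fold change of Oct1 cKO over parental cells (y axis) for each member tested, by nuclear complex I to V or mitochondrial genome (x axis), at each day. Filled points passed an adjusted p under 0.05, lines are medians, and at day 2 no complex IV member was called lower in Oct1 cKO while 15 of 18 were called higher. Of all genes tested, 33.7% were called higher and 33.6% lower at day 2.

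Complex I takes electrons from NADH at its hydrophilic arm, whose core subunits are encoded by Ndufs and Ndufv genes, while most Ndufa and Ndufb genes encode accessory subunits. At day 0, 14 of its 35 nuclear members were higher in Oct1 cKO and 1 was lower (median log2 fold change 0.13), or 10 and 3 without the third Oct1 cKO library (median 0.03). At day 2 the counts were 20 and 0 (median 0.22), and at day 6 they were 11 and 5 (median 0.08). On library sizes alone they were 12 and 5 at day 2, and the day 6 counts turned to 4 higher and 14 lower, while DESeq2 size factors gave 17 and 5 at day 6. Counts by complex are to be read against the shares of all genes tested that were higher and lower in Oct1 cKO. These shares were 26.4% and 27% at day 0, 33.7% and 33.6% at day 2, and 36.7% and 37.8% at day 6. In the main fit complex I had 40% and 2.86% at day 0, 57.1% and 0% at day 2, and 31.4% and 14.3% at day 6. Ndufs7, a core subunit near the quinone site, had 64.6, 64.9 and 61.7 CPM in Oct1 cKO at day 6, against 41, 40.5 and 40.3 in parental cells, a log2 fold change of 0.65 ± 0.07 (SE) with an adjusted p of 1.71e-11. It was not called at day 0, where the log2 fold change was 0.07, or -0.04 and still not called without the third Oct1 cKO library. Ndufs1, the largest core subunit, was also higher at day 6 (0.41 ± 0.05), and it was not called at day 0 or at day 2 (0.06, or -0.14 and called lower with library sizes alone). Ndufv1, which holds the NADH site, was higher at day 6 by 0.21.

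Accessory subunits of complex I did not move as a block. Ndufa6 had 53.1, 49.2 and 62 CPM in Oct1 cKO and 65.7, 68.2 and 65 in parental cells at day 0, 84.2, 80.3 and 76.4 in Oct1 cKO and 54, 53.6 and 57.5 in parental cells at day 2, and 76.5, 77.3 and 72.7 in Oct1 cKO and 85.8, 91.7 and 83.9 in parental cells at day 6. It was therefore lower in Oct1 cKO at day 0 (-0.27), higher at day 2 (0.55) and lower at day 6 (-0.21), with groups that did not overlap at any day. Ndufa2 was higher in Oct1 cKO at days 0 and 2 (0.33 and 0.33, the day 0 value 0.165 without the third Oct1 cKO library) and lower at day 6, with 37.4, 31.1 and 33 CPM in Oct1 cKO against 51.9, 49.2 and 52.6 in parental cells (-0.60 ± 0.09). Ndufa5 and Ndufb11 were likewise higher at day 0 (0.33 and 0.17, both lost without the third Oct1 cKO library) and lower at day 6 (-0.36 and -0.28). Among the larger day 2 differences were Ndufa7 (0.58) and Ndufb4 (0.77), the last with only 4.03 to 7.99 CPM. Ndufs6, a zinc-binding subunit, was higher at each day (0.38, 0.37 and 0.42), with a day 0 value of 0.241 without the third Oct1 cKO library. Ndufs4, whose promoter holds the octamer word, was not called at days 0 and 2 (0.04 and 0.08, the day 0 value 0.008 without the third Oct1 cKO library) and was lower at day 6 (-0.21).

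Complex II, succinate dehydrogenase, links the citric acid cycle to the chain. Of its 4 members, 1 was higher and 1 lower at day 0 (median log2 fold change -0.07), 3 and 0 at day 2 (median 0.16), and 2 and 2 at day 6 (median -0.01). At day 0 this is 25% and 25%, where all genes had 26.4% and 27%. Without the third Oct1 cKO library of day 0, 0 were higher and 3 lower at day 0 (median -0.14), the calls gained being Sdhb (-0.157) and Sdhd (-0.135). Sdha, the catalytic flavoprotein, was slightly lower in Oct1 cKO at day 0, with 314, 317 and 334 CPM in Oct1 cKO against 356, 342 and 354 in parental cells (-0.12 ± 0.04, a call lost at -0.119 to -0.0952 when any of 11 libraries was left out), and higher at day 6, with 309, 305 and 300 in Oct1 cKO against 251, 271 and 267 in parental cells (0.21 ± 0.04). Sdhc, a membrane anchor, was slightly higher at days 0 and 2 (0.12 and 0.19, the day 0 call lost at 0.064 without the third Oct1 cKO library and also without the first or the third parental library of day 0, and the day 2 value turning to -0.01 with library sizes alone), and at day 6 it had 72.9, 72.2 and 71.8 CPM in Oct1 cKO and 93.8, 90.3 and 94.5 in parental cells (-0.36 ± 0.05). Sdhd, the other anchor, was higher at days 2 and 6 (0.26 and 0.14, the day 6 value turning to -0.06 with library sizes alone and its call lost at 0.0704 without the first Oct1 cKO library of day 6) and Sdhb, the iron-sulfur subunit, was lower at day 6 (-0.17, a call lost at -0.14 to -0.108 without the second or the third parental or the second Oct1 cKO library of day 6). No complex II member was called higher at any of the days with library sizes alone.

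Complex III carries electrons from ubiquinol to cytochrome c. Of its 9 nuclear members, 3 were higher and 3 lower at day 0, 4 higher and 1 lower at day 2, and 5 higher and 1 lower at day 6 (median log2 fold changes 0.05, 0.14 and 0.20). In percent these are 33.3 and 33.3, 44.4 and 11.1, and 55.6 and 11.1, where all genes had 26.4 and 27, 33.7 and 33.6, and 36.7 and 37.8. The day 0 median was -0.03 without the third Oct1 cKO library of day 0, and DESeq2 size factors gave 8 higher and 1 lower at day 6. Uqcrb, the ubiquinone-binding subunit, was higher at all days, with 135, 140 and 150 CPM in Oct1 cKO against 109, 107 and 113 in parental cells at day 0 and 70.6, 70.5 and 69.7 in Oct1 cKO against 53.1, 54.2 and 50.3 in parental cells at day 6 (log2 fold changes 0.37, 0.49 and 0.42 at days 0, 2 and 6). Of its 50-base words, 25.5% also occur in other transcripts. Uqcrc2, a core subunit facing the matrix, had 214, 221 and 223 CPM in Oct1 cKO and 227, 216 and 226 in parental cells at day 0, not called, and 280, 268 and 265 in Oct1 cKO and 177, 178 and 178 in parental cells at day 6 (0.61 ± 0.04, adjusted p 2.27e-15). The Rieske protein gene Uqcrfs1 was lower at day 0 (-0.29) and higher at day 6 (0.32). Cyc1, which encodes cytochrome c1, was not called at day 0 and was higher by 0.14 at day 2 and 0.17 at day 6, which turned to -0.05 and -0.04 with library sizes alone. Its day 2 call was lost at 0.117 without the first or the third parental or the first Oct1 cKO library of day 2, and its day 6 call at 0.127 without the third Oct1 cKO library of day 6.

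Complex IV, cytochrome c oxidase, reduces oxygen, and its nuclear subunits include tissue isoforms. It was the complex with the highest share of members called higher in Oct1 cKO at day 2 (83.3%, against 82.4% in complex V). At that day 15 of 18 members tested were higher and 0 lower, with a median log2 fold change of 0.50. Complexes I and II also had 0 members lower at day 2. With library sizes alone 13 complex IV members were higher and 0 lower. At day 0, 11 were higher and 4 lower (median 0.23, or 0.13 without the third Oct1 cKO library), and at day 6 10 were higher and 1 lower (median 0.28), or 4 and 2 with library sizes alone. In the main fit complex IV had 61.1% higher and 22.2% lower at day 0, 83.3% and 0% at day 2, and 55.6% and 5.56% at day 6. All genes had 26.4% and 27%, 33.7% and 33.6%, and 36.7% and 37.8% at these days. Cox5a, an early-assembling subunit, had 384, 376 and 458 CPM in Oct1 cKO at day 0, against 330, 327 and 334 in parental cells. At day 2 it had 169, 171 and 169 in Oct1 cKO against 124, 130 and 122 in parental cells, and at day 6 167, 144 and 148 in Oct1 cKO against 94.5, 90.8 and 87.4 in parental cells. Every Oct1 cKO library was above every parental library of its day. The log2 fold changes were 0.30 ± 0.06, 0.44 ± 0.06 and 0.75 ± 0.06 at days 0, 2 and 6 (adjusted p 2.56e-05, 4.15e-08 and 8.91e-14). Without the third Oct1 cKO library of day 0 the day 0 difference was 0.205, still called.

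Cox4i1, the main isoform of the regulatory subunit 4, was higher at each day (0.41, 0.31 and 0.33), as was Cox6b1 (0.52, 0.57 and 0.29), which sits at the cytochrome c side. Cox6a1, with the NRF1 words above, had log2 fold changes of 0.35, 0.56 and 0.34, the first being 0.187 without the third Oct1 cKO library of day 0. With library sizes alone the calls of Cox4i1 at days 2 and 6 (0.122 and 0.127) and those of Cox6b1 (0.081) and Cox6a1 (0.134) at day 6 were lost. Cox7a2l, known as a factor that joins complexes III and IV into supercomplexes, was not called at day 0 and was higher at day 2 (0.54) and day 6, when it had 156, 147 and 145 CPM in Oct1 cKO, against 86.6, 90 and 89.8 in parental cells (0.75 ± 0.06). Cox8a was higher at days 2 and 6 (0.63 and 0.41). Cox7c was the complex IV member called lower at day 6, with 81.2, 75.8 and 72.5 CPM in Oct1 cKO and 98.9, 107 and 102 in parental cells (-0.42 ± 0.06), although it had been higher at day 2 (0.58).

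At each day the called nuclear member with the widest genotype difference was an isoform with restricted expression: Cox4i2 at day 0, Ndufa4l2 at day 2 and Cox7a1 at day 6. Ndufa4l2, a paralogue of Ndufa4 known as induced by low oxygen through HIF-1, had 92.9, 85 and 102 CPM in Oct1 cKO at day 2, against 16, 19 and 19.5 in parental cells. That is 5.15-fold higher (log2 fold change 2.36 ± 0.11, adjusted p 3.96e-14). At day 0 the order was the opposite, with 7.21, 5.88 and 9.34 CPM in Oct1 cKO and 14.9, 19.2 and 18 in parental cells (-1.20 ± 0.16), and at day 6 both genotypes were low, with 1.78 to 3.41 CPM in Oct1 cKO and 3.55 to 4.53 in parental cells, a difference that was not called. Of the summed TPM of Ndufa4 and Ndufa4l2, Ndufa4l2 made up 41.8% ± 1.85 in Oct1 cKO and 15.3% ± 1.13 in parental cells at day 2 (SD, n = 3 each). Ndufa4 itself was higher at day 2 as well (0.37).

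Cox7a1, the heart and skeletal muscle isoform of subunit 7a, also changed its order between days. It had 12.7, 16.2 and 19.1 CPM in Oct1 cKO and 22.7, 22.9 and 24.6 in parental cells at day 0, 35.5, 32.9 and 36.1 in Oct1 cKO and 16, 19.2 and 16.8 in parental cells at day 2, and 4.17, 3.18 and 3.62 in Oct1 cKO and 1.49, 1.4 and 0.887 in parental cells at day 6. It was thus lower in Oct1 cKO at day 0 (-0.54 ± 0.10) and higher at day 2 (1.01 ± 0.09) and day 6 (1.53 ± 0.22), and the groups did not overlap at any day. Its share of the summed TPM of Cox7a1 and Cox7a2 was 35.5% ± 0.695 in Oct1 cKO and 24% ± 1.32 in parental cells at day 2 (SD, n = 3 each). The 7 muscle and heart markers summed to 7.3 to 8.88 CPM in Oct1 cKO and 12.4 to 14.4 CPM in parental libraries at day 0. The sums were 17 to 19.2 in Oct1 cKO and 13.2 to 16.7 in parental libraries at day 2. They were 40.5 to 46.3 in Oct1 cKO and 19.3 to 22.4 in parental libraries at day 6. The sums thus ranked the genotypes as for Cox7a1 at each day, but they rose from day 0 to day 6 while Cox7a1 fell. Single markers did not all share this order. At day 2 it came from Myl7, with 7.13 to 9.01 CPM in Oct1 cKO and 4.61 to 5.62 in parental libraries. Myh6 overlapped at day 2 (7.13 to 8.75 in Oct1 cKO, 5.99 to 9.15 in parental libraries), as did Tnnt2 and Tnni1. At day 0 the low Ckm went the other way (0.115 to 0.49 in Oct1 cKO, 0 to 0.105 in parental libraries). Within the day 6 sums, Myl7 had 29.6 to 33.1 CPM in Oct1 cKO and 6.12 to 6.53 in parental libraries. Tnni1 went the other way, with 3.97 to 4.84 in Oct1 cKO and 11.1 to 14.1 in parental libraries. The part of these markers in the Cox7a1 result was not tested.

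Cox6b2, the testis isoform of subunit 6b, had 102, 84.1 and 94.2 CPM in Oct1 cKO and 43.7, 44.2 and 44.2 in parental cells at day 2 (1.08 ± 0.08), and it made up 31.7% ± 0.865 of the summed TPM of Cox6b1 and Cox6b2 in Oct1 cKO and 24.5% ± 0.214 in parental cells (SD, n = 3 each). Cox4i2, the lung isoform of subunit 4, known for its response to low oxygen, had 2, 1 and 7 counts in Oct1 cKO at day 0 against 13, 23 and 22 in parental cells (-2.25 ± 0.44), and 39, 42 and 48 in Oct1 cKO against 38, 24 and 35 in parental cells at day 2 (0.78 ± 0.22). At its highest, in 1 Oct1 cKO library of day 2, it made up 1.89% of the summed TPM of Cox4i1 and Cox4i2. The muscle isoform Cox6a2 had 0 to 6 counts, the testis isoforms Cox7b2 0 to 37 and Cox8c 0 to 26, too few for their genotype differences to be read beyond the calls: Cox7b2 was lower in Oct1 cKO at day 0, with 10, 11 and 17 counts in Oct1 cKO against 23, 29 and 37 in parental cells. The germ cell markers, 3 of 5 in the table, summed to 112 to 125 CPM in Oct1 cKO and 246 to 267 in parental libraries at day 0. At day 2 they summed to 140 to 155 in Oct1 cKO and 122 to 131 in parental libraries. On plain library sizes, the day 2 order came from Dazl, with 81.2 to 93.2 CPM in Oct1 cKO and 57.4 to 66.1 in parental libraries. Ddx4 went the other way at day 2 on these sizes (44.6 to 45.8 in Oct1 cKO, 46.3 to 49.7 in parental libraries), and Sycp3 overlapped. TMM factors at day 2 were 1.02 to 1.04 in Oct1 cKO and 1.18 to 1.19 in parental libraries. With TMM scaling the order of Ddx4 turns, and it is higher in every Oct1 cKO library, as Dazl is. The part of these markers in the results of the testis isoforms was not tested.

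**Figure D3:**
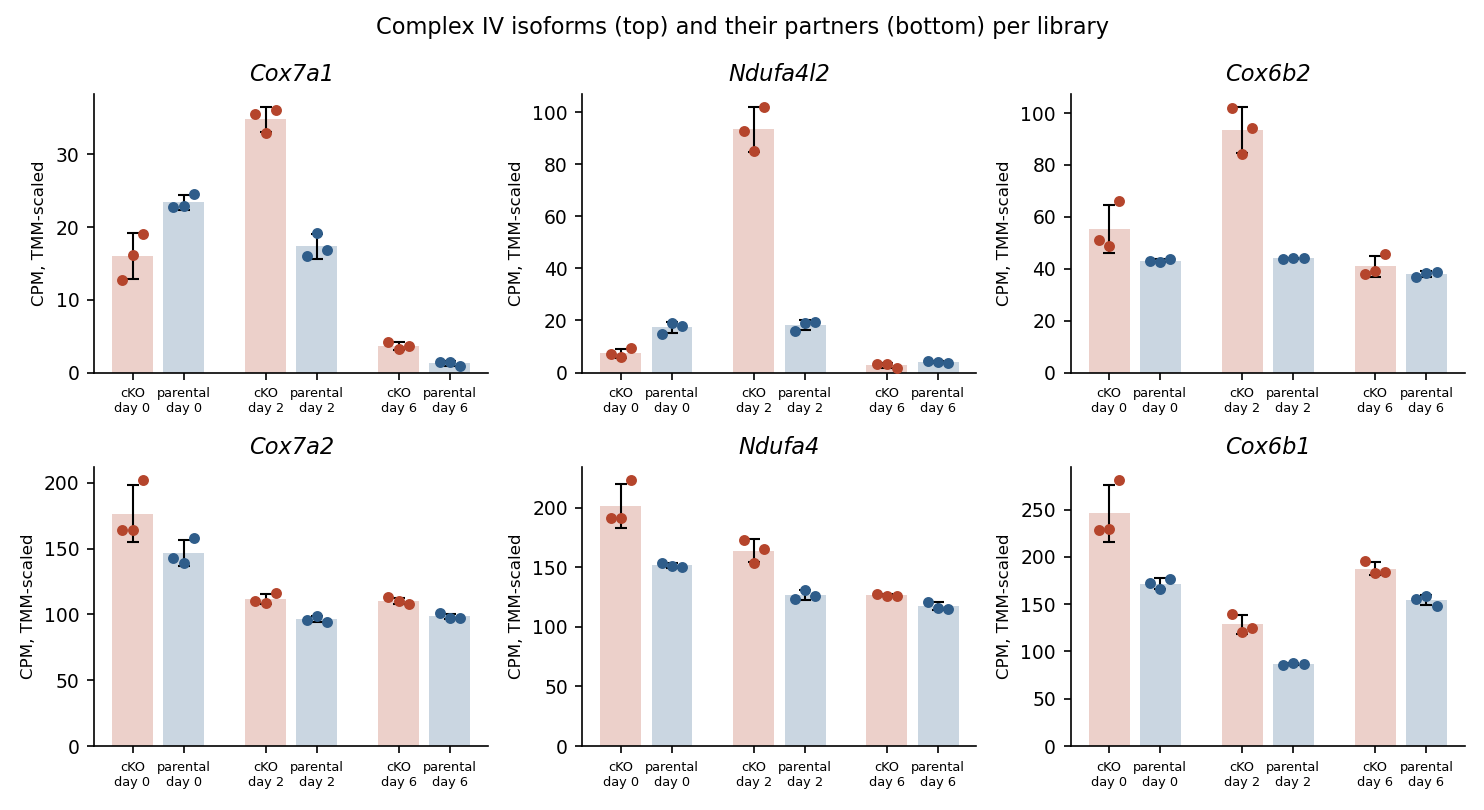
CPM on TMM-scaled library sizes (y axis) of complex IV isoforms with restricted expression (top) and of their common partners (bottom), by genotype and day (x axis). Points are libraries, bars are means and error bars are the SD over 3 libraries, and Ndufa4l2 stands out at day 2 with 85 to 102 CPM in Oct1 cKO against 16 to 19.5 CPM in parental libraries.

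Complex V makes ATP. Of its 17 members, 7 were higher in Oct1 cKO and 3 lower at day 0, 14 and 2 at day 2, and 9 and 4 at day 6 (median log2 fold changes 0.12, 0.26 and 0.12), and the day 0 median was 0.05 without the third Oct1 cKO library. In percent the counts are 41.2 and 17.6, 82.4 and 11.8, and 52.9 and 23.5, where all genes had 26.4 and 27, 33.7 and 33.6, and 36.7 and 37.8. Library sizes alone gave 6 and 3 at day 2, and 4 and 7 at day 6. Atp5b, the catalytic beta subunit and the nuclear member with the highest TPM at day 0, did not differ by call at day 0 (2630, 2575 and 2877 CPM in Oct1 cKO, 2677, 2678 and 2697 in parental cells). At day 2 it had 2370, 2167 and 2274 CPM in Oct1 cKO against 1593, 1676 and 1622 in parental cells (0.48 ± 0.05), with no overlap. Atp5a1, the alpha subunit, was higher by 0.37 at day 2. Atp5e, the epsilon subunit, had the largest increase in the complex at days 0 and 2: 86.6, 88.9 and 120 CPM in Oct1 cKO against 61.5, 67.3 and 63.7 in parental cells at day 0 (0.63 ± 0.09) and 86.2, 82.5 and 88.1 in Oct1 cKO against 51.2, 57 and 52.8 in parental cells at day 2 (0.67 ± 0.09), but 58.1, 59.9 and 55.9 in Oct1 cKO against 58.3, 56.5 and 58.6 in parental cells at day 6, not called.

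The membrane ring of complex V is built from subunit c, which 3 genes encode as the same mature protein with different import sequences. These genes differed from each other. Atp5g1 was not called at day 0 (-0.01, or -0.139 and called lower without the third Oct1 cKO library), higher in Oct1 cKO at day 2 (0.25, a call lost with library sizes alone, 0.0589, and at 0.198 to 0.205 without the second parental or the first Oct1 cKO library of day 2) and lower at day 6 (-0.39). Atp5g2 was higher at days 0 and 2 (0.24 and 0.54) and lower at day 6 (-0.23, a call lost at -0.163 to -0.153 without the first parental or the second Oct1 cKO library of day 6). Atp5g3 had 204, 190 and 204 CPM in Oct1 cKO and 225, 246 and 226 in parental cells at day 2 (-0.22 ± 0.05), and 284, 268 and 275 in Oct1 cKO and 199, 198 and 191 in parental cells at day 6 (0.49 ± 0.05). Atp5g3 was therefore the subunit c gene that was lower at day 2 and higher at day 6, the reverse of the other two. Atp5g2 shares 38.3% of its 50-base words with other transcripts, Atp5g1 11.1% and Atp5g3 none. Atp5s, coupling factor B, a member by name that is not a subunit of the purified enzyme, was lower at day 0 (-0.49). It was higher at day 2 (0.25) and not called at day 6 (-0.20).

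Chromosome 11 holds 4 nuclear members, Uqcr10, Uqcrq, Atp5g1 and Atp5h. Its genes as a whole were often lower in Oct1 cKO: 54.8%, 61.6% and 57.2% of its 1452 genes tested were called lower at days 0, 2 and 6, against 24.7%, 31.2% and 36.1% of those on other chromosomes. At day 0, 3 of the 4 were lower and 0 higher, while 9 of the 79 members tested on other chromosomes were lower and 36 higher. At day 2, 1 was lower and 1 higher, against 2 and 55 of the other 79, and at day 6 3 were lower and 0 higher, against 10 and 37. Atp5h, a stator subunit, had 82.1, 75.4 and 77.1 CPM in Oct1 cKO and 120, 125 and 114 in parental cells at day 6 (-0.62 ± 0.07). Uqcrq had 76.4, 83.9 and 110 CPM in Oct1 cKO and 120, 123 and 120 in parental cells at day 0 (-0.42 ± 0.09). With 4 members this is a description, and no test was made of the chromosome.

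Across the 3 days, 13 of 83 nuclear members were higher in Oct1 cKO each time, where 6.86% of all genes tested were, and 0 were lower each time, where 6.2% of all genes were. The 13 were Ndufa10, Ndufb2, Ndufb4, Ndufs6 and Ndufv2 of complex I, Uqcrb of complex III, Cox4i1, Cox5a, Cox6a1, Cox6b1, Cox6c and Cox7a2 of complex IV, and Atp5mpl of complex V. Library sizes alone left 3 higher each time (Cox5a, Ndufs6 and Uqcrb) and 2 lower each time (Atp5h and Uqcr10). With 1 library left out the count ran from 12 to 23, and it was 15 without the third Oct1 cKO library of day 0. With DESeq2 size factors it was 22, and with no filter on low counts 20.

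The mitochondrially encoded genes are transcribed as long precursors from both strands of mitochondrial DNA and then cut into single mRNAs, so their levels depend on processing and stability as well as on transcription. At day 0, 7 of the 8 tested were lower in Oct1 cKO and 0 higher (all genes: 27% and 26.4%), with a median log2 fold change of -0.55. At day 2, 2 were higher and 4 lower (median -0.28, all genes: 33.7% and 33.6%), and at day 6 2 were higher and 4 lower (median -0.09, all genes: 36.7% and 37.8%). With library sizes alone 1 was higher and 5 lower at both of these days. Among them, mt-Cytb and mt-Nd2 were lower in Oct1 cKO at each day, also with library sizes alone and without the third Oct1 cKO library of day 0.

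The abundant transcript of cytochrome c oxidase subunit 1, mt-Co1 (chrM:5328-6872), changed order between days. It had 7309, 7167 and 6717 CPM in Oct1 cKO at day 0, against 11698, 11185 and 11751 in parental cells (-0.71 ± 0.06, adjusted p 2.58e-11). At day 2 it had 10595, 10184 and 9450 in Oct1 cKO against 8572, 6873 and 8083 in parental cells (0.36 ± 0.06), and at day 6 6625, 7070 and 7558 in Oct1 cKO against 5482, 5061 and 5157 in parental cells (0.44 ± 0.06). In CPM, Oct1 cKO libraries were thus all below parental ones at day 0 and all above them at days 2 and 6. On plain library sizes the groups overlapped at day 2, when mt-Co1 took 1.08%, 1.06% and 0.98% of all counts in Oct1 cKO and 1.01%, 0.808% and 0.958% in parental libraries, and the log2 fold change was 0.169 at day 2 and 0.232 at day 6, both still called. In TPM it was the highest of all members in each group, with 14373 in Oct1 cKO and 24170 in parental cells at day 0.

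The transcript of cytochrome b, mt-Cytb, the mitochondrially encoded subunit of complex III, kept 1 order. It had 1882, 1810 and 1749 CPM in Oct1 cKO and 3140, 2963 and 3127 in parental cells at day 0, 699, 667 and 638 in Oct1 cKO and 1395, 973 and 1118 in parental cells at day 2, and 922, 879 and 946 in Oct1 cKO and 1612, 1469 and 1456 in parental cells at day 6. The log2 fold changes were -0.76 ± 0.09, -0.80 ± 0.09 and -0.72 ± 0.09, and the groups never overlapped. The complex I transcript mt-Nd2 had log2 fold changes of -0.50, -0.54 and -0.41. Its neighbour mt-Nd1 was lower at days 0 and 2 (-0.53 and -0.34) and was not called at day 6 (0.06, or -0.15 and called lower with library sizes alone), with 1376, 1573 and 1648 CPM in Oct1 cKO and 1503, 1438 and 1478 in parental cells. For mt-Nd4 the difference was -0.57 at day 0, -0.22 at day 2, not called, and -0.23 at day 6. These calls were not stable: leaving out any of 7 libraries gave a call at day 2 (-0.354 to -0.233), and leaving out any of 12 lost that of day 6 (-0.247 to -0.126).

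Further along the same strand, mt-Nd5 was lower at day 0 (-0.36), higher at day 2 (0.37) and lower at day 6 (-0.41), and its day 0 call was lost without the third Oct1 cKO (-0.279) or the first or the third parental library of day 0. Its day 2 call was lost with library sizes alone (0.176) and without the second parental (0.248) or the first Oct1 cKO library of day 2 (0.289). The gene on the opposite strand, mt-Nd6 (chrM:13552-14070), had 32.7, 31.4 and 38.1 CPM in Oct1 cKO and 113, 114 and 112 in parental cells at day 0 (-1.72 ± 0.34), and 28.5, 17.7 and 25.9 in Oct1 cKO and 82.3, 88.9 and 93.6 in parental cells at day 2 (-1.88 ± 0.35). At day 6 it had 22.3, 76.6 and 33.3 CPM in Oct1 cKO, where the second library is far above the others, and 44.8, 29 and 30.8 in parental cells, which was not called. It overlaps the end of mt-Nd5 (chrM:11742-13565), and whether counting used the strand is not given in the sources used here, so reads from precursors of the other strand cannot be told apart from its own. For mt-Nd3, with 9 to 68 counts a library, the difference was called at day 6 (0.57 ± 0.19), and not without the third Oct1 cKO library of day 6 (0.348) or with library sizes alone (0.368).

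**Figure D4:**
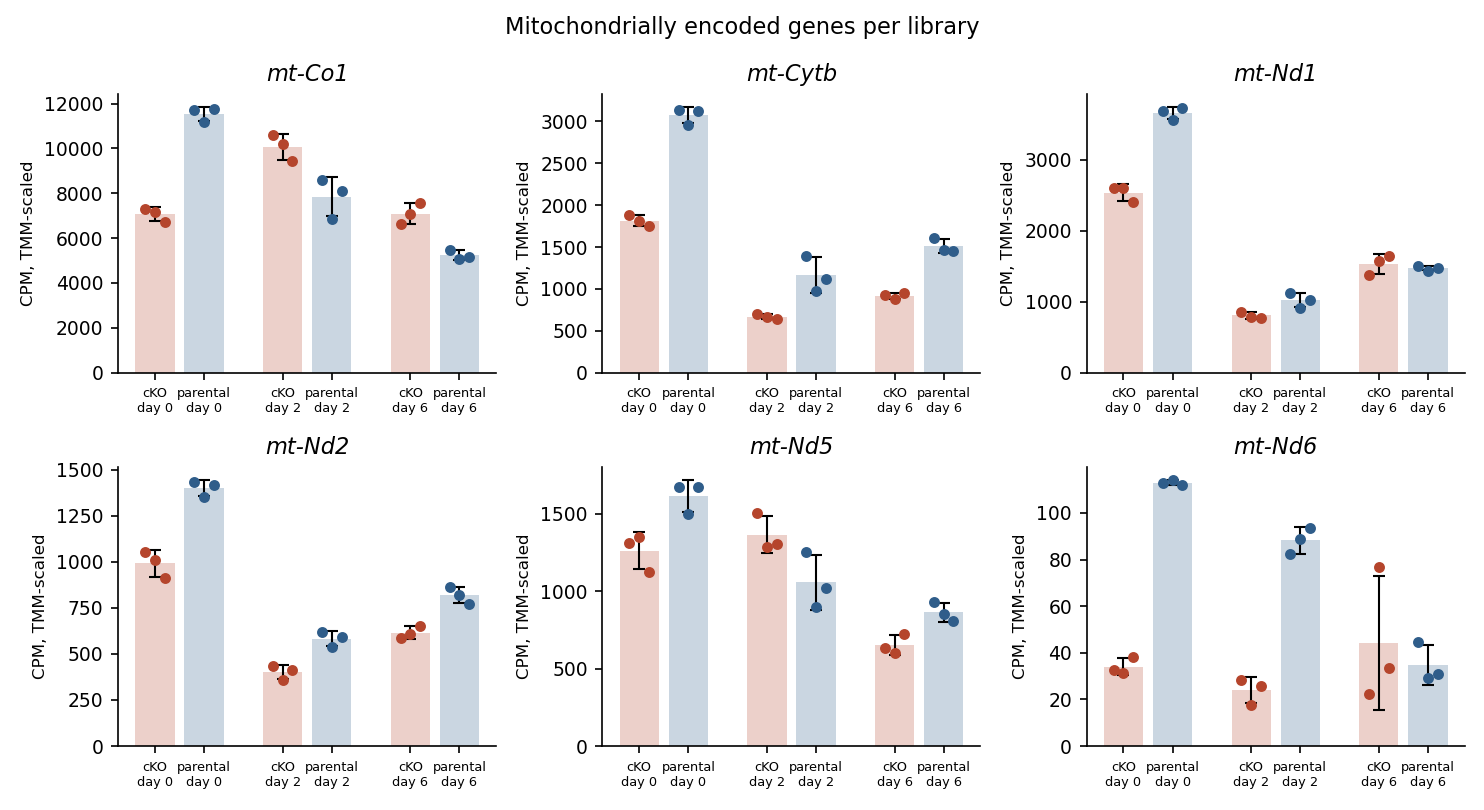
CPM on TMM-scaled library sizes (y axis) of 6 mitochondrially encoded genes, by genotype and day (x axis). Points are libraries, bars are means and error bars are the SD over 3 libraries, and on this scaling mt-Co1 reverses its order between day 0 (6717 to 7309 CPM in Oct1 cKO, 11185 to 11751 in parental libraries) and day 2 (9450 to 10595 in Oct1 cKO, 6873 to 8572 in parental libraries).

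The make-up of the mitochondrial counts, which does not depend on how libraries are scaled, differed between genotypes. At day 0, mt-Co1 took 49.3%, 49.2% and 49.6% of the counts of the 9 members in Oct1 cKO and 51.6%, 51.9% and 51.7% in parental libraries. At day 2 it took 73.2%, 74.8% and 73.1% in Oct1 cKO and 63.5%, 64.7% and 65.7% in parental libraries, and at day 6 62.6%, 63.2% and 63.0% in Oct1 cKO against 50%, 49.9% and 50.7% in parental libraries. The Oct1 cKO libraries were below all parental ones at day 0 and above all of them at days 2 and 6, and the 95% Wilson interval of each share was at most 0.454 percentage points wide. The ratio of mt-Co1 to mt-Cytb counts was 3.84 to 3.96 in Oct1 cKO and 3.73 to 3.78 in parental libraries at day 0. It was 14.8 to 15.3 in Oct1 cKO and 6.15 to 7.23 in parental libraries at day 2, and 7.19 to 8.05 in Oct1 cKO and 3.40 to 3.54 in parental libraries at day 6.

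Nuclear copies of mitochondrial genes can take their reads. Of the 50-base words of the annotated transcript, mt-Co1 shares 51.1% with pseudogenes, mt-Nd4 62.2%, mt-Nd3 98% and mt-Co3 99.9%, while mt-Cytb, mt-Nd1 and mt-Nd6 share none. The mt-Co1 pseudogenes Gm29216 and Gm13340 had 10 to 99 and 16 to 115 counts a library, against 91438 to 198929 for mt-Co1 itself. With mt-Co3 at 0 to 8 counts and mt-Nd3 at 9 to 68, the levels of both are uncertain. Of the 84 nuclear members, 35 share no 50-base word with another gene's transcript and 19 share 10% or more, up to 41.6% for Atp5o, so that small differences of these 19 are less certain.

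Over the days, the nuclear members fell in both genotypes. In Oct1 cKO cells 10 of 83 were higher at day 2 than at day 0 and 56 were lower (all genes: 41% higher, 35.5% lower), and at day 6 7 were higher and 64 lower (all genes: 41.4% and 40.4%), or 12 and 61 without the third library of day 0. In parental cells 4 were higher at day 2 and 68 lower (all genes: 43.2% and 37.7%), and at day 6 7 were higher and 61 lower (all genes: 45.3% and 40.2%). The median log2 fold change was -0.34 at day 2 and -0.56 at day 6 in Oct1 cKO, and -0.41 and -0.43 in parental cells, where all genes had 0.08 and 0.00 in Oct1 cKO and 0.08 and 0.07 in parental cells. With library sizes alone, which puts the median of all genes at 0.42 in parental cells at day 2, the parental day 2 counts were 19 higher and 33 lower, and those of Oct1 cKO at day 2 were 19 and 44. In parental cells at day 2 the fall covered 27 of 35 members of complex I, 4 of 4 of complex II, 9 of 9 of complex III, 12 of 18 of complex IV and 16 of 17 of complex V. With library sizes alone these were 10, 2, 4, 6 and 11 members lower, with 7, 2, 1, 6 and 3 higher. At day 6 the fall was less open to scaling, with 68 lower and 7 higher in Oct1 cKO and 54 and 11 in parental cells with library sizes alone.

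Cox5a fell furthest among the complex IV members without a paralogue of restricted expression, to 153 ± 12.1 CPM at day 6 in Oct1 cKO, against 406 ± 45.1 at day 0 (SD, n = 3 each). In parental cells it fell to 90.9 ± 3.53, against 330 ± 3.65 at day 0. These are log2 fold changes of -1.41 ± 0.06 in Oct1 cKO and -1.86 ± 0.06 in parental cells. Atp5g1 fell by similar amounts, with -1.27 at day 2 and -1.60 at day 6 in Oct1 cKO, and -1.53 and -1.22 in parental cells. Atp5b fell by 0.96 on the log2 scale in Oct1 cKO and by 1.23 in parental cells at day 6, and Uqcrb by 1.01 and 1.06. Members that rose include Atp5s, with 1.67 in Oct1 cKO and 0.93 in parental cells at day 2. Cox7a1 rose to 34.9 ± 1.71 CPM at day 2 in Oct1 cKO, against 16 ± 3.19 at day 0, and fell in both genotypes by day 6 (-2.14 ± 0.14 in Oct1 cKO and -4.20 ± 0.15 in parental cells). The testis isoform Cox8c had 5, 25 and 12 counts at day 2 in Oct1 cKO and 26, 20 and 19 in parental cells, and at most 7 counts at any other day.

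Of the 8 mitochondrially encoded members, 4 fell and 2 rose by day 2 in Oct1 cKO and 5 fell and 1 rose by day 6 (median log2 fold changes -0.70 and -0.63). In parental cells 6 fell and 1 rose by day 2 and 7 fell and 1 rose by day 6 (medians -0.92 and -0.97). Of all genes tested, 35.5% fell and 41% rose by day 2 in Oct1 cKO, and 40.4% and 41.4% by day 6. These shares were 37.7% and 43.2% by day 2, and 40.2% and 45.3% by day 6, in parental cells. The transcript mt-Nd1 fell furthest by day 2, by 1.65 on the log2 scale in Oct1 cKO and by 1.84 in parental cells, and mt-Cytb fell by 1.44 and 1.41. In contrast, mt-Co1 was higher at day 2 than at day 0 in Oct1 cKO (0.51 ± 0.06) and lower in parental cells (-0.56 ± 0.06, or -0.22 with library sizes alone). At day 6 its difference from day 0 was not called in Oct1 cKO (0.00 ± 0.06), while it was lower in parental cells (-1.14 ± 0.06). The low-count mt-Nd3 rose to 47, 52 and 68 counts at day 6 in Oct1 cKO, against 14, 9 and 12 at day 0, and to 41, 52 and 39 against 17, 21 and 15 in parental cells.

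**Figure D5:**
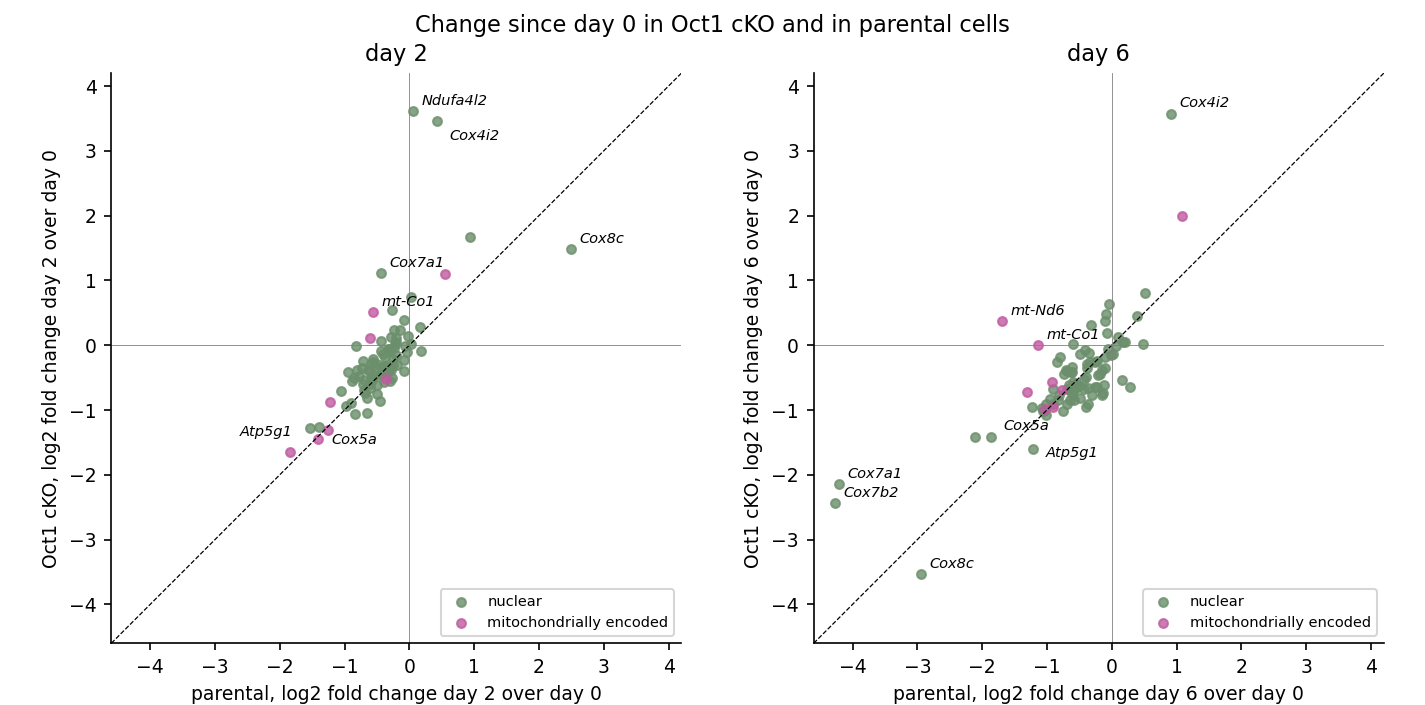
Log2 fold change since day 0 in Oct1 cKO cells (y axis) against that in parental cells (x axis) for each member tested, at day 2 (left) and day 6 (right). Points on the dashed line changed alike in both genotypes, and Ndufa4l2, Cox4i2, Cox7a1 and mt-Co1 lie above it at day 2.

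Whether the change over time differed between genotypes was tested directly, as the change in Oct1 cKO minus that in parental cells. For day 2, 30 of 83 nuclear members had a positive difference and 5 a negative one (all genes: 30.1% and 26.9%), a split that turned to 14 and 21 with library sizes alone. For day 6 the counts were 22 and 19 (all genes: 32% and 31.9%), or 12 and 41 with library sizes alone. Leaving out the third Oct1 cKO library of day 0 gave 47 and 2 for day 2, and 28 and 16 for day 6. The largest differences of nuclear members were those of Ndufa4l2 (3.56 ± 0.19 at day 2, adjusted p 1.10e-12), Cox4i2 (3.04 ± 0.49 at day 2 and 2.65 ± 0.49 at day 6) and Cox7a1 (1.55 ± 0.14 and 2.06 ± 0.24). Among the other members, Uqcrc2 (0.63), Uqcrfs1 (0.61) and Ndufs7 (0.58) had positive differences for day 6 and Sdhc (-0.48), Ndufa2 (-0.93) and Cox7c (-0.60) negative ones. The change of Cox5a was not called different at day 2 (0.14, or 0.225 and called without the third Oct1 cKO library of day 0) and was called at day 6 (0.45 ± 0.08).

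Of the mitochondrially encoded members, 3 of 8 had a positive difference for day 2 and 5 for day 6, and 0 a negative one. All genes had 30.1% positive and 26.9% negative for day 2, and 32% and 31.9% for day 6. The positive count for day 2, 37.5%, is near that share, and with library sizes alone it was 2, with 1 negative. Among the day 2 calls, that of mt-Nd4 (0.35 ± 0.14) was lost when any of 16 libraries was left out (0.191 to 0.373). The day 6 count was 3 with library sizes alone, without the second or the third Oct1 cKO or the second parental library of day 0, and without the third Oct1 cKO library of day 6. For mt-Co1 it was 1.07 ± 0.09 for day 2 (adjusted p 4.25e-12) and 1.15 ± 0.09 for day 6 (adjusted p 3.82e-13). For mt-Cytb it was -0.04 ± 0.13 and 0.04 ± 0.13, neither called. For mt-Nd5 it was called for day 2 (0.73 ± 0.17), and for mt-Nd1 and mt-Nd6 for day 6 (0.59 ± 0.09 and 2.07 ± 0.48, the mt-Nd6 value being 1.41 without the second Oct1 cKO library of day 6).

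Other genes of the pathway were read from lists chosen by function, whose counts are to be read against the shares of all genes tested that were higher and lower in Oct1 cKO, 26.4% and 27% at day 0, 33.7% and 33.6% at day 2, and 36.7% and 37.8% at day 6. Of 15 further complex I genes, mostly assembly factors, 1 was higher in Oct1 cKO and 5 lower at day 0, 10 and 3 at day 2, and 4 and 7 at day 6 (median log2 fold changes -0.11, 0.33 and -0.18, where all genes had 0.00, -0.01 and 0.00). Ndufaf6, an assembly factor, averaged 22 CPM in Oct1 cKO and 12.2 in parental cells at day 2 (0.85 ± 0.09), and Nubpl, which inserts iron-sulfur clusters into complex I, was lower at day 0 (-0.47) and day 6 (-0.53). Assembly factors of complexes II to V and the cytochrome c genes made up a list of 34, with 10 higher and 9 lower at day 0, 10 and 12 at day 2, and 12 and 13 at day 6 (medians -0.02, 0.01 and -0.09), which is close to the share of all genes in both directions. In that list the testis cytochrome c gene Cyct averaged 19.8 CPM in Oct1 cKO and 65 in parental cells at day 0 (-1.71 ± 0.08), and 3.65 in Oct1 cKO and 21.4 in parental cells at day 6 (-2.55 ± 0.11), while the somatic gene Cycs was higher at day 6 (0.88). The complex IV assembly factors Cox20 (1.36) and Coa7 (-1.34) moved in opposite directions at day 2.

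The list of genes that maintain, transcribe or stabilise mitochondrial DNA and its transcripts held 20, of which 4 were higher in Oct1 cKO and 8 lower at day 0, 7 and 7 at day 2, and 4 and 9 at day 6 (medians -0.16, -0.04 and -0.12). Polg, the catalytic subunit of the mitochondrial DNA polymerase, averaged 382 CPM in Oct1 cKO and 108 in parental cells at day 6 (1.83 ± 0.05, adjusted p 2.85e-30). Top1mt, a mitochondrial topoisomerase, was also higher at day 6 (1.31 ± 0.08). Tefm, the mitochondrial transcription elongation factor, averaged 5.76 CPM in Oct1 cKO and 20.2 in parental cells at day 2 (-1.81 ± 0.09), Twnk, the mitochondrial DNA helicase, averaged 21.5 CPM in Oct1 cKO and 39.6 in parental cells at day 2 (-0.88 ± 0.07), and Pnpt1, which degrades and processes mitochondrial RNA, was lower at days 0 and 6 (-0.68 and -0.76). Tefm, Pnpt1 and Elac2, lower at day 2 (-0.62), lie on chromosome 11, and Twnk lies on chromosome 19. Polrmt, the mitochondrial RNA polymerase, was higher at day 0 (0.58). These values stand beside the mitochondrial transcript levels above, and their part in them was not tested.

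At day 0, 3 of 11 regulators of nuclear respiratory genes were higher and 4 were lower, with 5 and 2 at day 2, and 6 and 2 at day 6 (medians 0.00, 0.15 and 0.35). At day 0 this is 27.3% higher and 36.4% lower, where all genes had 26.4% and 27%. Esrra, a nuclear receptor, averaged 42.7 CPM in Oct1 cKO and 20.6 in parental cells at day 0 (1.06 ± 0.08). Ppargc1b, a coactivator, averaged 13.4 CPM in Oct1 cKO and 3.86 in parental cells at day 6 (1.79 ± 0.12). Esrrb, which is also a pluripotency factor, averaged 41.6 CPM in Oct1 cKO and 18.1 in parental cells at day 2 (1.19 ± 0.08). The regulators named here were higher in Oct1 cKO, but others were lower. Log2 fold changes in this list ran from -0.28 to 1.155 at day 0, from -1.98 to 1.19 at day 2 and from -2.69 to 1.84 at day 6. Of 15 carriers, outer membrane genes and other markers of mitochondrial content, 5 were higher and 3 lower at day 0, 11 and 1 at day 2, and 9 and 3 at day 6 (medians 0.01, 0.26 and 0.24), the day 2 counts being 73.3% and 6.67% where all genes had 33.7% and 33.6%. Among them were the porin Vdac2 (0.42 at day 2 and 0.75 at day 6) and citrate synthase, Cs (0.38 and 0.53), both higher in Oct1 cKO, and the uncoupling protein gene Ucp2, lower at day 6 (-0.86). At day 0, 28 of 78 mitochondrial ribosomal protein genes were higher and 17 lower, with 34 and 17 at day 2, and 23 and 25 at day 6 (medians 0.10, 0.09 and -0.04). At day 2 this is 43.6% and 21.8%. Over the days these genes fell too, 58 at day 2 and 56 at day 6 in Oct1 cKO against 7 and 7 that rose, and 63 and 57 in parental cells against 2 and 8 that rose (medians -0.50 and -0.67 in Oct1 cKO, -0.50 and -0.51 in parental cells), where 35.5% and 40.4% of all genes fell in Oct1 cKO and 37.7% and 40.2% in parental cells. Falls also outnumbered rises in the other 5 lists by day 6 in both genotypes.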

How the data were processed

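The values used were the deposited read counts per gene, whole numbers in 1 table of 21995 Ensembl genes and 18 libraries, with no normalization by the authors. Per the submitters' processing notes, Novoalign, the builds mm10 and GRCm38, and DESeq2 1.10.0 were involved. How reads were assigned to genes (counter, annotation, strand, repeated matches) is not given in the sources used here. Illumina's standard preparation was used on trypsinised cells, per the labels' protocols.

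Columns were matched to samples by title, and groups were taken from the labels. Separate cultures within a group are not stated in the labels, so p-values measure only how these libraries vary, which may be technical variation. One edgeR 4.0.16 fit (R 4.3.3) over all 18 libraries used TMM scaling, filterByExpr (minimum count 10, minimum total 15), robust glmQLFit and glmQLFTest. Adjusted p is the Benjamini-Hochberg value over all 18352 genes tested in each of 9 comparisons, and genes under 0.05 were called. Standard errors were derived from the quasi-likelihood statistic. The fitting script was tested on simulated data. CPM are on TMM-scaled library sizes, shares and marker sums on plain library totals, and TPM use GENCODE M21 exon lengths, to which all IDs were matched (Python 3.11.15, pandas 2.3.3). Shared 50-base words were counted over GENCODE M21 transcripts.

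Members and lists were chosen with earlier results of these data known. Named members are the mitochondrially encoded ones, isoform families, Cox5a, fixed core subunits, called members on chromosome 11, and per complex and comparison the 3 largest called changes each way at a mean log2 CPM of 1 or more. Not every gene this gives is reported. List genes named are the 3 with the smallest adjusted p. Ndufs4, Ndufa10, Cox6c and Atp5mpl, and further days' values of members the rule names at 1 day, were added after their values were seen. Alternatives were DESeq2 size factors, library sizes alone, sizes without mitochondrial genes, no low-count filter, DESeq2 1.42.0, fits restricted to the compared libraries, and leaving out each library.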

Additional observations from a re-analysis of the deposited data

Results flagged for a closer look

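For 8 results the change since day 0 differed between genotypes by a called interaction of more than 1 on the log2 scale, as Oct1 cKO minus parental (edgeR's quasi-likelihood test, adjusted p under 0.05). For day 2 these were Ndufa4l2 (3.56), Cox4i2 (3.04), Cox7a1 (1.55) and mt-Co1 (1.07). For day 6 they were Cox4i2 (2.65), mt-Nd6 (2.07), Cox7a1 (2.06) and mt-Co1 (1.15). Cox4i2 rests on 1 to 7 counts in Oct1 cKO libraries at day 0. The second Oct1 cKO library of day 6 had 76.6 CPM of mt-Nd6 beside 22.3 and 33.3 in the others, and without it the mt-Nd6 value was 1.41 and still called. Groups of 3 libraries were too small for a search for outlying samples.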

How the results depend on the processing

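Leaving out scaling factors changed most. With library sizes alone, nuclear members called in Oct1 cKO against parental cells were 33 higher and 13 lower at day 2 and 16 higher and 26 lower at day 6, and 1 mitochondrially encoded member was higher at each of these days. Over time, 19 were higher and 33 lower in parental cells at day 2, 11 higher in parental cells at day 6, and 19 higher in Oct1 cKO at day 2. For the interactions, 14 were higher and 21 lower for day 2 and 12 higher and 41 lower for day 6, with 1 mitochondrially encoded member lower for day 2 and 3 higher for day 6.

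Signs of single genes also turned with library sizes alone where either value was called. In Oct1 cKO against parental cells these were Ndufs1 (-0.14), Cyc1 (-0.047), Sdha (-0.051) and Sdhc (-0.0056) at day 2, and mt-Nd1 (-0.15), Atp5a1 (-0.084), Sdhd (-0.063), Cyc1 (-0.036) and Cox7a2 (-0.041) at day 6. In parental cells they included Cox7a2l (0.26), Atp5g2 (0.14), Sdha (0.13), Sdhc (0.13), Ndufa4 (0.079), Cox4i1 (0.0499), Uqcrfs1 (0.043), Pou2f1 (0.017) and Ndufs7 (0.0036) at day 2 and Cox6b1 (0.0059) at day 6. In Oct1 cKO Sdhc turned at day 2 (0.014), and in the interactions Ndufs1 for day 2 (-0.17) and Atp5a1 for day 6 (-0.17).

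A fit of only the libraries compared gave 5 nuclear members lower and 1 mitochondrially encoded member higher at day 2 between genotypes. No filter and DESeq2's test each gave 0 mitochondrially encoded members higher in parental cells at day 2. In single comparisons, DESeq2 size factors and sizes without the mitochondrial genes moved no count of called nuclear or mitochondrially encoded members by over 1.5 times. Within complexes some counts moved with DESeq2 size factors, such as 17 members of complex I and 8 of complex III higher at day 6, and they moved the count higher at all 3 days to 22.

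With each library left out in turn, nuclear members higher and lower ran from 29 to 47 and 9 to 17 at day 0, 50 to 59 and 1 to 5 at day 2, and 32 to 43 and 11 to 17 at day 6. Mitochondrially encoded ones ran from 6 to 7 lower at day 0, 1 to 2 higher and 4 to 5 lower at day 2, and 1 to 2 and 3 to 4 at day 6. Over time the nuclear ranges were 2 to 4 higher and 66 to 69 lower (parental day 2), 4 to 8 and 58 to 69 (parental day 6), 9 to 15 and 50 to 60 (Oct1 cKO day 2) and 7 to 12 and 61 to 68 (Oct1 cKO day 6), and 0 to 1 mitochondrially encoded member was higher in parental cells at day 2. Interaction counts ran from 25 to 47 and 2 to 8 for day 2 and 18 to 28 and 14 to 25 for day 6, with 2 to 4 and 3 to 5 mitochondrially encoded members higher. The cause of these changes was not tested. No paired analysis was possible because replicates are numbered in sample order and no label gives their number.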
